A study of Mus musculus with 4 samples.

Results

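Hepatocytes (HCs), the parenchymal cells of the liver, of a YAPKO library were compared here with HCs of a WT library across all genes. A cell counted as an HC when 500 to 6000 genes were detected in it, when no more than 10% of its UMIs were mitochondrial, when Alb, Ttr, Apoa1, Fgb, Apoc3, Serpina1c, Ass1 and Cyp2e1 together held at least 4% of its UMIs, and when the endothelial genes Kdr, Pecam1, Stab2, Ptprb, Clec4g and Cdh5 together held under 0.2%. The cells were thus chosen by their summed levels of these genes, and 3397 of 13430 kept cells of the 2 libraries were HCs: 2224 of 7155 in WT (31.1%, 95% interval 30.01 to 32.2) and 1173 of 6275 in YAPKO (18.7%, 17.7 to 19.7). The study sequenced untreated primary liver cells of 1 mouse each of the genotypes WT, YAPKO, TAZKO and DKO. YAPKO mice carry floxed Yap alleles and Cre under the albumin promoter, which acts in HCs and biliary epithelial cells (BECs), while Kupffer cells (KCs), endothelial cells (ECs) and other non-parenchymal cells (NPCs) keep their alleles. TAZKO mice have the same design for Wwtr1, the gene of TAZ, and DKO mice for both genes. HC and NPC fractions were isolated separately and mixed before loading, so the share of HCs also depends on the mixing, and the age of the sequenced mice is not given in the sources used here.

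YAP and TAZ are co-activators that the kinases of the Hippo pathway hold in the cytoplasm; in the nucleus they act through TEAD transcription factors. In the liver, YAP is known for its part in BEC fate, liver size and regeneration, and its level in resting HCs is low. HCs themselves divide their work along the lobule, with ammonia capture and drug metabolism near the central vein and urea and glucose production near the portal vein.

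With 1 library a genotype there is no replicate check, no test was possible, and every comparison is between libraries, not genotypes. Intervals cover counting error only. Levels are CPM, the UMIs of a gene scaled to all HC UMIs of the library, given for WT and then YAPKO unless stated. A gene "rose" or "fell" when the ratio of CPM was at least 2-fold, and folds are log2 ratios of YAPKO over WT, followed by their 95% interval where a range is given. The 8 HC genes and 6 endothelial genes chose the cells, so their values are a description: the HC genes summed to 108958 and 95540 CPM (Alb 40265 and 40117, Cyp2e1 118 and 205) and the endothelial genes to 41.2 and 50.8 CPM. Near the 4% threshold, 24 WT and 28 YAPKO cells held 3 to 4% HC UMIs and stayed outside, and 30 and 74 held 4 to 5% and were kept; the closest values were 3.99 and 3.95% outside and 4.01 and 4.04% inside. The endothelial limit left out 25 and 7 cells, the lowest at 0.241 and 0.211%, and the highest HCs inside it were at 0.199 and 0.194%.

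Markers that the rule did not use fit the label. Of 12 HC markers outside the rule, 12 were measured in both libraries and summed to 48719.6 and 51661 CPM, led by Fabp1, a fatty acid carrier (23944 and 16956 CPM). In B cells of the same libraries these markers summed to 3513 and 1103 CPM, so HC RNA was also counted in B cell barcodes, whether as free RNA or through doublets was not tested. Markers of other cells were low. EC markers, 12 of 14 past the count minimum, summed to 99.2 and 121 CPM in HCs (most abundant Ehd3, 14.5 and 17.1) against 13499 and 10016 in the other kept cells, and KC markers (10 of 11) to 174 and 157 CPM, led by C1qb in WT (33.3) and Clec4f in YAPKO (31.4). Stellate cell markers (2 of 11) summed to 19.1 and 12.7 CPM (Dcn 7.57 and 4.43; Col1a1 at 0 in WT). B cell markers (2 of 7) reached 13 and 14.7 CPM (Cd79a 4.73 and 4.78), and T and NK cell markers (2 of 10) 24.6 and 7.56 CPM, led by Gzma in WT (7.15) and Trbc2 in YAPKO (1.95), with Cd8a at 0 in both.

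Myeloid and biliary markers need more care. Neutrophil markers (3 of 7 past the minimum, Ly6g at 0 in WT) summed to 228 and 164 CPM, most of it S100a9 (129 and 88.6), and they sat in shallow cells: 691 and 502 CPM in HCs under 20000 UMIs against 9.52 and 34.6 in deeper ones. Monocyte and macrophage markers (3 of 8, Gpnmb at 0 in WT) reached 476 and 700.4 CPM, of which Fn1, a plasma protein that HCs secrete themselves, gave 432 and 640.2. Dendritic cell markers (0 of 7, Flt3 at 0 in both, Xcr1 in WT; led by Siglech) summed to 0.631 and 1.71 CPM, and erythroid markers (2 of 5, Hba-a2 and Hbb-bt at 0 in WT) to 46.7 and 55.6 CPM, mostly Alas2, the heme synthesis enzyme. BEC markers (3 of 9) summed to 54.0 and 247 CPM. Most of that was Spp1, and Sox9 was next in WT; Cftr was at 0 in both libraries, Krt19 had 4 and 1 UMIs, Krt7 1 and 2, and Epcam 6 and 3, so the YAPKO HCs carried next to none of the defining BEC keratins. Markers of other cell types made up at least 0.5% of UMIs in 36 WT and 42 YAPKO HCs. No doublet caller was run; alternatives without the most UMI-rich cells or without cells of mixed markers are given with the other settings. WT and YAPKO shared 23 barcodes, 9 of them kept in both and 1 an HC in both.

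The HCs of the 2 libraries differed in depth. Median UMIs per HC were 2162 in WT and 6342 in YAPKO, median genes 717.5 and 1747, and median mitochondrial UMIs 0.144 and 1.04%. In both libraries many shallow cells stood beside fewer deep ones. HCs of at least 20000 UMIs numbered 281 in WT and 336 in YAPKO, 12.6 and 28.6% of HCs, yet held 67.9 and 72.4% of HC UMIs, at median depths of 46834 and 36127 UMIs and mitochondrial shares of 4.0 and 4.46%. Shallow HCs numbered 1943 and 837, with medians of 2041 and 4037 UMIs and 0.119 and 0.270% mitochondrial UMIs. The shallow classes are less alike: HCs of 10000 to 20000 UMIs had a median of 0.245% mitochondrial UMIs in WT (98 cells) and 3.87% in YAPKO (126 cells), the latter near the deep class, and shallow ratios carry this difference. The deep classes are closer to each other in depth, genes and mitochondrial share, so the main results are also given for deep and shallow HCs alone. Outside the limits, 5820 WT and 696 YAPKO barcodes met both gene shares with under 500 genes, and 81 and 132 did so with over 6000 genes. How far depth and free RNA shape the ratios was not tested.

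**Figure D1:**
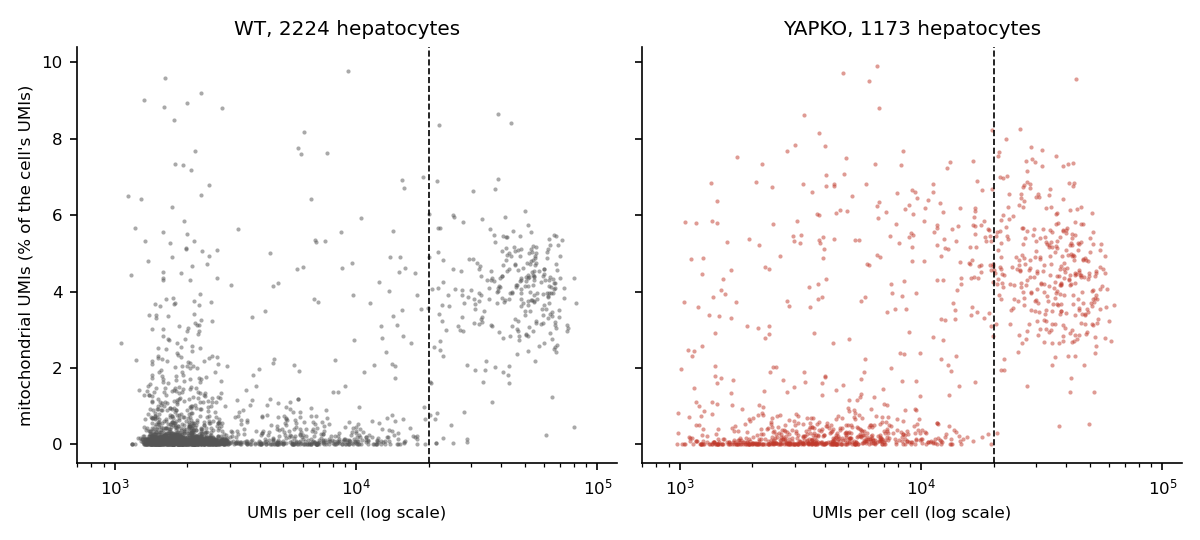
Each point is 1 HC of WT (left) or YAPKO (right), with its UMIs (horizontal, log scale) and its percent of mitochondrial UMIs (vertical); the dashed line is at 20000 UMIs. Both libraries hold shallow HCs with few mitochondrial UMIs and deep HCs at several percent; in YAPKO the deep HCs are a larger part, and HCs just below the line are often at several percent too.

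Across the 9241 genes with at least 100 UMIs over both libraries, of 55488 listed, most ratios lay above 0: the median log2 ratio was 0.41, with a 10th percentile of -0.05 and a 90th of 0.85. In this comparison 523 genes (5.66%) rose and 53 (0.574%) fell. Relative to the all-gene median, 157 genes (1.70%) were at least 2-fold higher and 126 (1.36%) at least 2-fold lower. The shift goes along with a smaller share of UMIs in the most abundant genes, as the 50 most abundant held 48.7% of HC UMIs in WT and 39.9% in YAPKO. Mup20, which encodes a major urinary protein, was the most abundant gene in both and went from 74689 to 42450.4 CPM, and the gene model CT010467.1 from 24381 to 7081 CPM. In deep HCs alone the median was 0.30, and relative to it 187 genes were higher and 99 lower. Gene group medians are therefore given relative to the all-gene median, and "relative" has that meaning throughout.

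**Figure D2:**
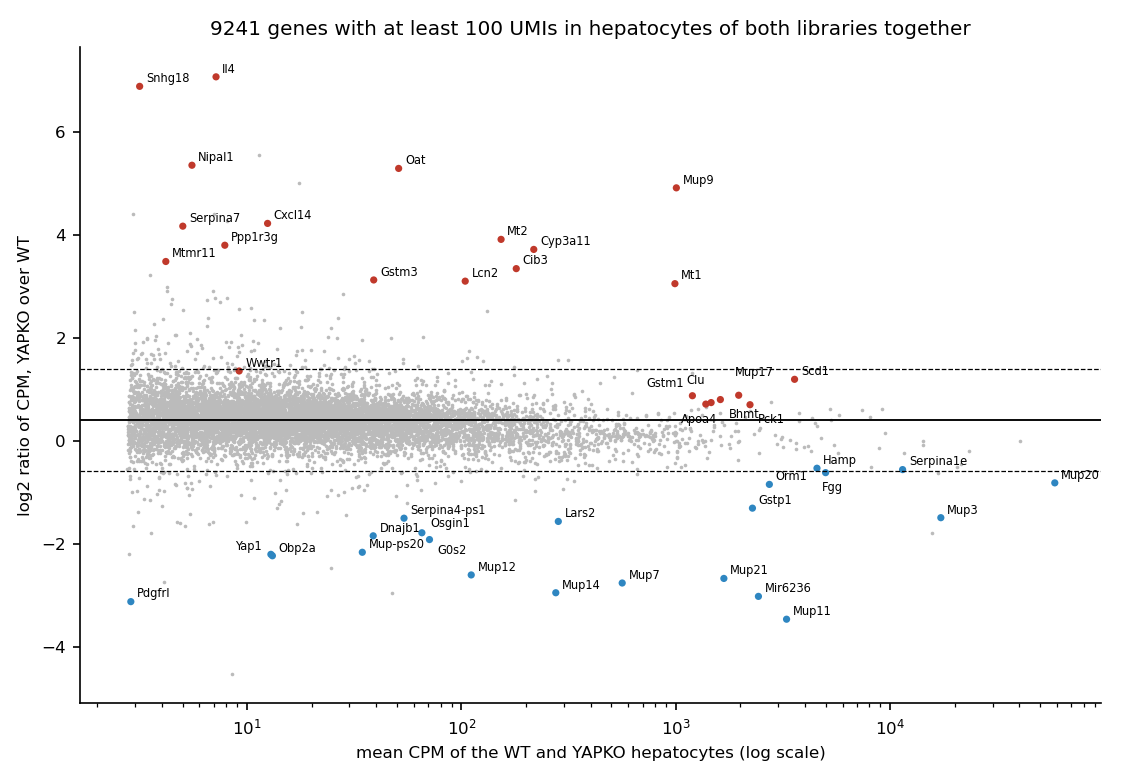
Each point is 1 gene, with its mean CPM in WT and YAPKO HCs (horizontal, log scale) and its log2 ratio of YAPKO over WT (vertical); the solid line is the all-gene median and the dashed lines 2-fold around it. The cloud lies above 0, and labelled genes such as Oat, Mt2 and Cyp3a11 above and Mup11 below stand clear of it.

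Yap1, the targeted gene, fell from 21.2 CPM (19.2 to 23.4) in WT to 4.61 CPM (3.64 to 5.75) in YAPKO HCs, a log2 ratio of -2.20 (-2.57 to -1.85). The fall was similar in deep HCs (26.5 and 5.63 CPM; -2.24) and in shallow HCs (-2.38). In the other kept cells, where Cre is not active except in BECs, Yap1 was at 21.5 and 15.5 CPM. Among HCs 11.1% and 5.97% held a Yap1 UMI, and after thinning each cell to 1000 UMIs 1.08% and 0.513%; among B cells, at median depths of 2902 and 2867 UMIs, these shares were 0.247% and 0.232%, and 0% and 0% thinned. The gene spans chr9:7931999-8004596 on the minus strand, and because reads come from the 3' end, UMIs of a recombined transcript can still be counted. Levels by library were 46.7 CPM in TAZKO and 4.59 in DKO HCs. The size of the fall depended on the scale, from -1.07 in thinned cells and -1.25 with the gene limits read as UMIs to -2.61 relative to the median, and the direction did not.

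Wwtr1, which encodes TAZ, rose from 5.15 CPM (4.18 to 6.28) to 13.2 CPM (11.6 to 15.1), a log2 ratio of 1.36 (1.01 to 1.72) and a relative 0.95. The share of HCs with a Wwtr1 UMI went from 3.96 to 14.7%, and from 0.135 to 1.71% in thinned cells. The size depended on the class of cell: 0.96 in deep and 2.57 in shallow HCs. Other kept cells held far more Wwtr1 in both libraries (75.1 and 61.1 CPM), so free RNA could add to the low HC level; its part was not tested. In TAZKO and DKO HCs, which share the WT control, Wwtr1 was at 1.44 and 2.31 CPM.

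Other parts of the Hippo pathway moved less. Of 17 of 20 components measured, Yap1 and Wwtr1 included, 3 rose and Yap1 was the 1 that fell, so that of the other 15 measured, 2 rose and 0 fell. Relative to the median 0 of the 17 were at least 2-fold higher and 2 lower. The relative median of the list was 0.16 (0.16 in deep, 0.19 in shallow HCs). The pair that rose besides Wwtr1 was Tead1, a DNA-binding partner of YAP (6.04 and 13.3 CPM, log2 1.14, 0.81 to 1.48), and Amot, a cytoplasmic YAP binder (3.99 and 8.27 CPM, log2 1.05). Neither passed 2-fold relative to the median. In thinned cells Tead1 was found in 0.450% and 0.513% of HCs (10 and 6 cells) and Amot in 0.225% and 0.171% (5 and 2 cells). Detection at equal depth thus showed no clear rise of either gene. Mob1b, a scaffold of the LATS kinases, was the most abundant component at 37.5 and 46.6 CPM.

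YAP target genes did not fall as a group in HCs. Of 22 targets, 9 passed the count minimum, 1 rose, 1 fell (0 and 2 relative to the median), and the relative median was 0.03 (0.22 in deep, -0.09 in shallow HCs). Ccn1, which encodes the matrix protein CYR61, fell from 5.52 CPM (4.51 to 6.68) to 1.59 CPM (1.05 to 2.32), with a log2 ratio of -1.79 (-2.46 to -1.17) and -1.68 in deep HCs. It was also lower in the other kept cells, 38.5 and 7.51 CPM, so the fall was not limited to HCs. Amotl2, an angiomotin family member, was at 6.99 and 3.96 CPM, which falls short of 2-fold (-0.82) and changes sign between deep (-1.08) and shallow HCs (0.28). Crim1, a membrane protein that binds growth factors, rose from 5.36 to 11.3 CPM (1.08, and 0.92 in deep HCs), and Wwc1, which encodes KIBRA and was the most abundant target, was at 24.5 and 40.8 CPM. The best-known target Ccn2 had only 12 and 9 UMIs and Ankrd1 2 and 1, too few to read a direction. The core TEAD motif GGAATG, on either strand, was in the promoters of 8 of the 16 targets with a promoter sequence (RefSeq, build GRCm38.p6, 250 bases before to 50 after the start), against 14.7% of 32851 promoters. Stretches from Ccn1, which fell, and Amotl2, the target with the next lowest ratio past the minimum, are shown with the motif in capitals, as its reverse complement (Crim1, which rose, has a match too); they lie at chr3:145649996-145650135, minus strand, and chr9:102717654-102717793, plus strand. A match is a description, not a site or a cause.
Ccn1: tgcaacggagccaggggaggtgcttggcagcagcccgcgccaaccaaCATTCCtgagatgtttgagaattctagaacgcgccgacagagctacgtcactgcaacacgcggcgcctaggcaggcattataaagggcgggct
Amotl2: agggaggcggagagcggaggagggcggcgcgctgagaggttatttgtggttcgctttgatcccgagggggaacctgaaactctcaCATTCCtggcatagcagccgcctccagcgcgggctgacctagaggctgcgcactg

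**Figure D3:**
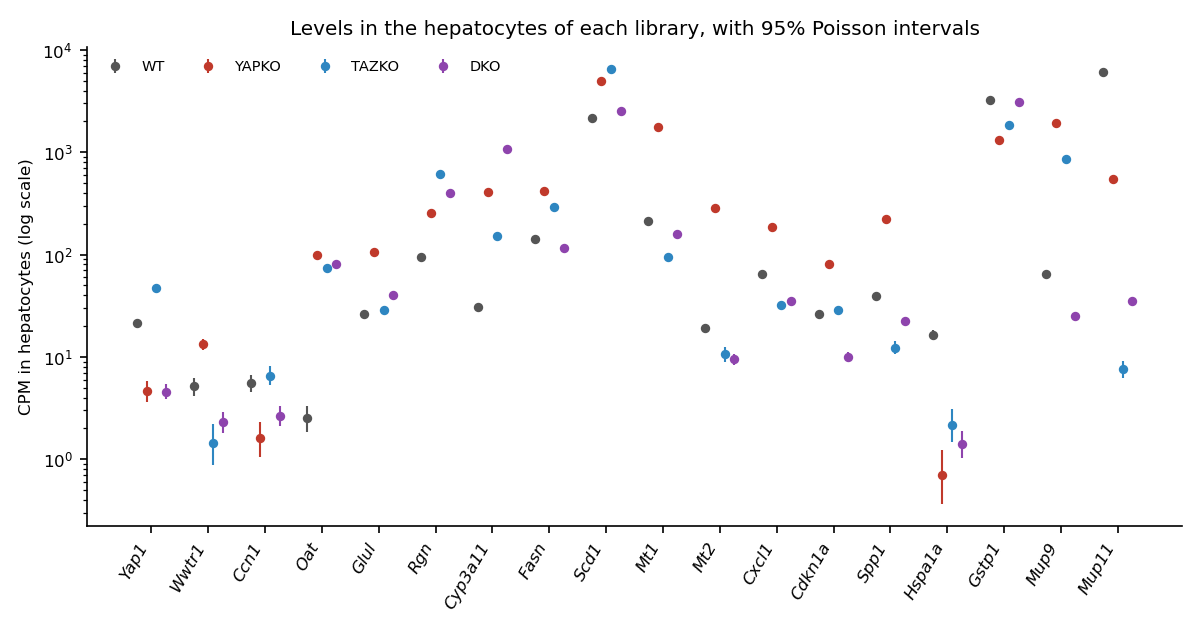
Level of selected genes in HCs of each of the 4 libraries, in CPM on a log axis with counting-error intervals. Yap1 is low in YAPKO and DKO, Wwtr1 in TAZKO and DKO, and Mt1 and Mt2 are highest in YAPKO.

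Most measured genes of the pericentral zone rose. Of 11 of 18 pericentral genes measured, 8 rose and 0 fell; relative to the all-gene median 6 did and the relative median was 1.02 (0.83 in deep, 1.10 in shallow HCs). Their summed level was 531 and 1099 CPM. Oat, the ornithine aminotransferase of pericentral HCs, had the largest ratio, from 2.52 CPM (1.86 to 3.34) to 99.4 CPM (94.7 to 104), log2 5.30 (4.89 to 5.75). In deep HCs its ratio was 4.91 (1.08 and 32.6 CPM). WT HCs stood alone for Oat: TAZKO and DKO HCs held 73.8 and 80.4 CPM, and the other kept cells of WT and YAPKO 65.5 and 64.3. Glul, which encodes glutamine synthetase of the same cells, rose from 26.2 (24.0 to 28.6) to 107 CPM (102 to 112), log2 2.02 (1.88 to 2.17); the rise was smaller in deep (1.10) than in shallow HCs (3.53). Rgn, a calcium-binding lactonase, rose from 95.2 to 256 CPM (1.43), Cyp1a2, a drug-metabolising cytochrome, from 37.1 to 84.4 (1.19), the hepatokine gene Lect2 from 9.72 to 23.8 (1.29), Aldh3a2, a fatty aldehyde dehydrogenase, from 2.26 to 10.7 (2.24) and the receptor gene Ahr from 2.0 to 13 (2.70). Gstm3, described with its family, is the other member that rose. Ahr was higher in the other kept cells (54.2 and 35.7 CPM) than in HCs.

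At equal depth, a larger share of YAPKO than WT HCs held a UMI of 10 of the 11 measured pericentral genes. After thinning, Oat was found in 0.495% and 6.92% of WT and YAPKO HCs (1.75% and 13.1% unthinned) and Glul in 2.16% and 10.5% (12.1% and 43.0% unthinned). B cells held both genes at similar shares in the 2 libraries, 7.65% and 6.03% for Oat and 4.2% and 4.41% for Glul thinned (unthinned, Oat in 17.5% and 19% and Glul in 10.1% and 14.4%). Cyp2c29, a steroid and drug hydroxylase and the most abundant pericentral gene in WT, went the other way, from 11.2 to 8.12% of thinned and 20.6 to 12.9% of unthinned HCs, although its level was 179.7 and 233 CPM. All barcodes with under 500 genes, taken without regard to the HC gene shares, had Oat at 8.16 and 204 CPM and Glul at 23.3 and 142 CPM.

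Pericentral shares per cell differed between the libraries mainly at the upper end. The median HC held 0.0276% pericentral UMIs in WT and 0.0323% in YAPKO, close values, while the 90th percentile was 0.115 and 0.441%. At least 0.5% pericentral UMIs, a threshold chosen after seeing the data, were found in 24 WT HCs (1.08%, 0.693 to 1.60) and 112 YAPKO HCs (9.55%, 7.93 to 11.4), and in thinned cells in 22 of 2224 and 113 of 1170. The threshold marks no gap: 13 and 26 HCs lay between 0.4 and 0.6%. At 1% or more there were 5 WT (0.225%) and 73 YAPKO HCs (6.22%). The share of TAZKO and DKO HCs, against the same WT control, was 9.60 and 3.33% at the 0.5% threshold, 18.3 and 6.13% of thinned cells, and 0.565 and 0.343% at 1% or more, so the threshold and the depth change how these libraries compare with YAPKO. Their summed pericentral levels were 2014 and 1162 CPM. Oat and Glul count toward the share, so their levels in the chosen cells follow from the choice and are a description: 35.3 and 1546 CPM of Oat and 89.2 and 967 CPM of Glul in the 24 WT and 112 YAPKO cells. The 112 YAPKO cells were shallower than the other YAPKO HCs, with medians of 2864.5 and 6752 UMIs. They held less of the opposite zone, a median of 0.429% against 0.969% periportal UMIs, with the periportal cytochrome Cyp2f2 at 98.5 against 1416 CPM. The 24 WT cells were instead deeper than the other WT HCs, with medians of 5768.5 and 2158 UMIs. Whether isolation caught more pericentral HCs or HCs expressed more pericentral genes cannot be told apart.

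No periportal gene fell, and the median ratio of the group trailed the all-gene median. Leaving out Ass1, which helped choose the cells, 17 of 17 were measured, 1 rose and 0 fell (0 and 1 relative to the median), with a relative median of -0.38 (-0.27 in deep, -0.36 in shallow HCs). Their summed level was higher in YAPKO, at 8981 and 12104 CPM. The median HC held 0.624 and 0.843% periportal UMIs, with 1.02 and 1.33% in deep and 0.593 and 0.598% in shallow HCs. Ctsc, a lysosomal protease, was at 126 and 73.7 CPM and the one member at least 2-fold lower relative to the median. Tat, the tyrosine aminotransferase, was the member that rose, from 683 to 1699 CPM (1.32, 1.29 to 1.35, and 1.15 in deep HCs). The urea cycle list, again without Ass1 (7 of 7), had no member past 2-fold and a relative median of -0.18. This median changed sign with depth, at -0.31 in deep and 0.28 in shallow HCs. Cps1, the entry enzyme of the cycle, was at 1075 and 1698 CPM.

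Genes of fatty acid synthesis were higher throughout. Of 15 of 16 measured, 6 rose (2 relative to the median), 0 fell and 15 of 15 lay above the all-gene median, with a relative median of 0.35 (0.37 in deep, 0.58 in shallow HCs) and summed levels of 4390.0 and 8803 CPM. Scd1, the desaturase that makes oleate, rose from 2173 to 4987 CPM (1.20, 1.18 to 1.22, and 1.11 in deep HCs) and was the most abundant gene of the list. Fasn, the fatty acid synthase, rose from 142 to 419.8 CPM (1.57, 1.5 to 1.63, and 1.44 in deep HCs) and Acaca, which makes its malonyl-CoA substrate, from 33.3 to 92.0 (1.47). Srebf1, the transcription factor of the programme (23.8 and 48.0 CPM, log2 1.01), the elongase Elovl6 (41.0 and 91.9, log2 1.17) and Acly, which supplies cytosolic acetyl-CoA (175 and 351, log2 1.00), passed 2-fold in CPM but not relative to the median. Fasn was detected in 6.16% and 21.3% of thinned HCs. The median HC held 0.247 and 0.480% UMIs of the list, with 0.394 and 0.818% in deep and 0.229 and 0.315% in shallow HCs (deep HCs are a larger part in YAPKO, and what this adds over all HCs was not tested). Fasn was at 294 and 115 CPM in TAZKO and DKO HCs, and Scd1 at 6499 and 2554.

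Fatty acid breakdown stood apart from synthesis. Of 21 of 25 genes of fatty acid oxidation and PPAR-alpha targets measured, 0 rose and 1 fell (0 and 2 relative to the median), with a relative median of -0.25. The member that fell was Fgf21, a fasting hormone, from 5.10 to 2.48 CPM (-1.04, -1.60 to -0.50), and Fabp1, the most abundant, had a log2 ratio of -0.50. G0s2, an inhibitor of lipid droplet breakdown, fell from 112 to 29.7 CPM (-1.92, -2.06 to -1.78); it was at 112 and 22.8 CPM in TAZKO and DKO HCs. Cholesterol genes (19 of 19) had no member past 2-fold, a relative median of -0.12, and Sc5d, a late enzyme of the pathway, at 351 and 349.9 CPM. In gluconeogenesis and glycogen metabolism (16 of 16) the relative median was 0.23 and the member that rose was Igfbp1, an insulin-repressed binding protein (305 and 726 CPM, log2 1.25). Pck1, the rate-limiting gluconeogenic enzyme (1687 and 2749.6 CPM, log2 0.70), and Bhmt, a methyl transferase of methionine metabolism (1175 and 2052, log2 0.80), were among the abundant genes with the highest ratios. Ppp1r3g, a glycogen-targeting subunit of protein phosphatase, rose from 1.05 to 14.7 CPM (3.81) and stood at 73.7 CPM in DKO. The calcium-binding protein gene Cib3 rose from 32.2 to 328 CPM (3.35), with 935 CPM in DKO.

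Few bile acid genes passed 2-fold. Synthesis genes (13 of 14 measured) had 1 member that rose, Cyp7a1, the rate-limiting enzyme of the classic pathway, at 4.57 and 9.92 CPM (1.12, 0.74 to 1.51), which is not past 2-fold relative to the median. TAZKO and DKO HCs held 79.2 and 29.2 CPM of it. Cyp8b1, the 12-alpha-hydroxylase that sets cholic acid output, was at 165 and 180.4 CPM, and Cyp7b1 of the alternative pathway at 389 and 204 CPM, the list member at least 2-fold lower relative to the median; the list's relative median was -0.31. Among transporters (13 of 16), 3 rose and 0 fell (0 and 1 relative to the median): Abcc3, the basolateral efflux pump (19.2 and 39.6 CPM, log2 1.05), Abcb4, the canalicular phospholipid floppase (86.0 and 182, log2 1.08), and Slco1a4, an organic anion uptake carrier (3.10 and 7.26, log2 1.23, or -0.030 with the gene limits read as UMIs), none past 2-fold relative to the median. Slc10a1, the main sodium-dependent bile acid uptake carrier and the most abundant of the list, was at 315 and 302 CPM, and the uptake carrier Slco1a1, lower relative to the median, at 78.1 and 46.2. The list's relative median was 0.04. Bile acid regulators and their drug-responsive targets (10 of 10) had 2 members that rose (1 relative to the median), Cyp3a11 and Cyp2b10, a relative median of 0.29, and Nr0b2, the repressor SHP, at 72.0 and 39.7 CPM, at least 2-fold lower relative to the median.

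Drug-metabolising genes showed a few large changes in families whose medians trailed the all-gene median. Cyp3a11, a target of the xenobiotic receptor PXR, rose from 30.6 to 404 CPM (3.72, 3.6 to 3.85, and 3.83 in deep HCs); 1 WT cell held 130 of 582 WT UMIs, and without the top cell of each library the ratio was 4.03. It was found in 2.74% and 17.4% of thinned HCs and 0% and 0.928% of thinned B cells (unthinned, 6.65% and 38.6% of HCs, and 0.988% and 2.32% of B cells), and was at 152 and 1075 CPM in TAZKO and DKO HCs. Cyp2b10, the CAR target, rose from 9.67 to 24.6 CPM (1.35), and Cyp2a5, a coumarin hydroxylase, from 2.05 to 14.1 (2.78). Over the Cyp2 and Cyp3 genes (20 of 31 measured, 4 up, 0 down, 2 up relative to the median) the relative median was -0.37, and Cyp2f2, the most abundant, stayed at 1321 and 1335 CPM. Cyp2c54 also passed 2-fold (10.9 and 22.4 CPM, log2 1.04), yet in cells with at least 10% HC UMIs its ratio was -0.86. Glutathione S-transferases (21 of 21) moved both ways: Gstm3 (7.99 and 70.0 CPM, log2 3.13, and 2.20 in deep HCs), Gsta1 (3.94 and 20.1, log2 2.35) and Gstm2 (4.78 and 16.1, log2 1.75) rose, and Gstp1, the abundant pi-class enzyme, fell from 3243 to 1311 CPM (-1.31, -1.33 to -1.28, and -1.59 in deep HCs). The relative median of the family was -0.32. Reads of such near-identical family members can be split or lost between paralogs, so single members of the Cyp, Gst, Mup, Hspa1 and Serpina families are uncertain. Among NRF2 targets (11 of 16, relative median -0.08) Srxn1, a peroxiredoxin repair enzyme, rose (14.8 and 32.6 CPM, log2 1.14), Osgin1, an oxidative stress gene, fell (101.4 and 29.4, log2 -1.79, -1.93 to -1.64), and Fth1, the ferritin heavy chain, was the most abundant (4126 and 5019).

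Several genes with very large ratios lie outside these families. Nipal1, a magnesium transporter gene, rose from 0.263 to 10.8 CPM (5.36, 4.11 to 7.0), Cxcl14, a chemokine gene, from 1.26 to 23.7 (4.23) and Mtmr11, a myotubularin-related gene, from 0.683 to 7.68 (3.49). DKO HCs were high for all 3, at 24.4, 61.0 and 8.89 CPM. The noncoding RNA Snhg18 had 1 UMI in WT and 106 in YAPKO. Serpina7, which encodes thyroxine-binding globulin, rose from 0.526 to 9.51 CPM (4.18, and 37.4 CPM in DKO); 1 cell held 7 of its 10 WT UMIs, and without top cells the ratio was 5.55. Pdgfrl, a receptor-like gene, fell from 5.15 to 0.590 CPM (-3.12), and the pseudogene Serpina4-ps1 from 79.8 to 28.2 (-1.5). Among abundant genes, Clu, the extracellular chaperone clusterin (1091 and 1831 CPM, log2 0.75), had one of the highest ratios and Serpina1e, an antitrypsin gene (13600 and 9245 CPM, log2 -0.56), one of the lowest, neither past 2-fold.

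Major urinary protein (Mup) genes were lower in sum, and many of them fell. Of 22 of 22 Mup genes measured, 1 rose and 9 fell, and 16 were at least 2-fold lower relative to the median, with a relative median of -1.37 (-1.01 in deep, -2.17 in shallow HCs). Summed, they made up 112958 CPM in WT and 57697 in YAPKO HCs, and 27095 and 48744 in TAZKO and DKO. Mup11 went from 6025 to 545 CPM (-3.47, -3.50 to -3.44), Mup7 from 979.9 to 144 (-2.76), Mup21 from 2897 to 454 (-2.67) and Mup3 from 25414 to 9033 (-1.49). Mup9 went the other way, from 64.2 to 1947 CPM (4.92, 4.84 to 5.01), and Mup17 was at 1378 and 2551 CPM. Levels were lower across the range of cells: per HC, Mup UMIs made up 8.54, 11.9 and 16.2% in WT (10th percentile, median, 90th) and 1.62, 5.57 and 9.87% in YAPKO. Mup RNA was also found outside HCs, with a Mup11 UMI in 49.4% and 1.86% of thinned B cells of WT and YAPKO.

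The list of male-biased genes overlaps with the Mup genes. Of 21 of 21 male-biased genes measured, 1 rose and 5 fell (0 and 10 relative to the median), with a relative median of -0.99 (-0.87 in deep HCs), but 5 members and 3 of the falls are Mup genes already described. Of the other 16, 1 rose and 2 fell, and their relative median was -0.52 (-0.42 in deep, -0.90 in shallow HCs). Elovl3, a fatty acid elongase (246 and 111 CPM, log2 -1.15), and Hsd3b5, a steroid dehydrogenase (42.3 and 15.6, log2 -1.44), fell, and Susd4, a complement regulator, rose (1.73 and 4.43, log2 1.35). Only 3 of 22 female-biased genes passed the minimum, of which Rtn4, an endoplasmic reticulum protein, rose (51.2 and 150.2 CPM, log2 1.55) and none fell. Their relative median was 0.44, with 0.56 in deep but -0.09 in shallow HCs. Sex chromosome genes (4 of 5) had none past 2-fold and a relative median of 0.01; Ddx3y, on the Y chromosome, was at 49.6 and 69.6 CPM and Xist had 0 and 3 UMIs, so HCs of both libraries expressed a Y-linked gene and next to no Xist. Obp2a, an odorant-binding lipocalin, fell from 21.7 to 4.61 CPM (-2.23).

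The metallothionein genes Mt1 and Mt2 rose. Mt1, which binds zinc and copper, rose from 212 CPM (206 to 219) to 1768 CPM (1748 to 1789), log2 3.06 (3.01 to 3.11), and Mt2 from 19 (17.1 to 21.0) to 287 CPM (279 to 295), log2 3.92 (3.77 to 4.08). In deep HCs the ratios were 2.93 and 3.77. The other kept cells showed no such rise, with Mt1 at 624 and 601 CPM and Mt2 at 76.0 and 67.8. In thinned cells Mt1 was found in 15.1% and 55.8% of HCs and 1.23% and 7.42% of B cells, and Mt2 in 1.48% and 16.8% of HCs and 0% and 1.39% of B cells (unthinned, Mt2 in 7.42% and 51.6% of HCs, and 0.247% and 3.48% of B cells). YAPKO was the only high library: Mt1 was at 95.3 and 158 CPM in TAZKO and DKO HCs and Mt2 at 10.6 and 9.46. The genes are neighbours on chromosome 8, and their promoters hold several copies of the metal response core, TGCGCNC or TGCACNC on either strand. The Mt1 promoter holds 3 matches and the Mt2 promoter 4; 25.7% of 32851 promoters hold at least 1, 1.97% at least 3 and 0.517% at least 4. Both whole promoters are shown since these genes moved together, with matches in capitals (RefSeq, GRCm38.p6; chr8:94178839-94179138 and chr8:94172368-94172667, plus strand).
Mt1: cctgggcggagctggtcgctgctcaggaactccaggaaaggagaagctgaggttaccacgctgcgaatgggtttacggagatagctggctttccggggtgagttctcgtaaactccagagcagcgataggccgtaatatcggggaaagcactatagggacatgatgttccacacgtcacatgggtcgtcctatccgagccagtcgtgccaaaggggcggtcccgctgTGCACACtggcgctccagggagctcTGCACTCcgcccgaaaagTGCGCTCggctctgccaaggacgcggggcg
Mt2: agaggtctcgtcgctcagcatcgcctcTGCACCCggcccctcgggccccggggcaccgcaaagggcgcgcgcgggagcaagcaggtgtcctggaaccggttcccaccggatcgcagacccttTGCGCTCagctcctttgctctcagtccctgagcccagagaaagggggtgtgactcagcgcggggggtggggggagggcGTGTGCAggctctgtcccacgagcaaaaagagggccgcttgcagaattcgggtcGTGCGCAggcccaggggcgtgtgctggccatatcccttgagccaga

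Other acute phase genes were mixed. Without Fgb, which helped choose the cells, 29 of 30 were measured, Mt1 and Mt2 included, and 6 rose and 0 fell (4 and 2 relative to the median), with a relative median of -0.01 and summed levels of 43669.5 and 45638.4 CPM. Lcn2, an iron-siderophore binder, rose from 21.7 to 187 CPM (3.11, 2.96 to 3.26) and was found in 1.26% and 13.9% of thinned HCs; it was also higher in the other kept cells (45.8 and 91.0 CPM), and DKO HCs held 102 CPM. Saa3, a serum amyloid, rose (16.7 and 43.1 CPM, log2 1.37), though 1 YAPKO cell held 130 of its 730 UMIs and without top cells the ratio was 1.21. Socs3, the feedback inhibitor of cytokine receptors (4.26 and 14.1 CPM, log2 1.73), and Il6ra, the IL-6 receptor (17.5 and 38.6, log2 1.14), rose as well; Socs3 was also higher in the other kept cells (21.8 and 44.8 CPM). Against these, Orm1, a plasma glycoprotein (3508 and 1953 CPM, log2 -0.84), Fgg, a fibrinogen chain (6047 and 3944, log2 -0.62), and Hamp, the iron hormone hepcidin (5382 and 3726, log2 -0.53), were lower without passing 2-fold in CPM. Serpina3k, a protease inhibitor and the most abundant gene of the list in YAPKO, was at 8893 and 9964 CPM. Complement and coagulation genes (36 of 36) had none past 2-fold and a relative median of -0.18, with C3 at 1773 and 2663 CPM. Apolipoproteins, without the rule genes Apoa1 and Apoc3 (11 of 12), had none either, at a relative median of -0.41, with Apoc1 at 24781 and 21612 CPM and Apoa4 at 1044 and 1716. Among hepatokines and growth factors (20 of 23, relative median -0.30), 3 rose (0 relative to the median), Gdf15, a stress hormone (12.1 and 31.9 CPM, log2 1.40), with Igfbp1 and Lect2, and 2 fell, Fgf21 and Angptl8, an inhibitor of lipoprotein lipase (35.9 and 17.4, log2 -1.04).

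Interferon-stimulated genes rose in part, and often through few cells. Of 23 of 28 measured, 7 rose and 0 fell (5 and 0 relative to the median), with a relative median of 0.10 (0.28 in deep HCs, but -0.33 in thinned cells). Ifit1, which binds viral RNA, rose from 4.41 to 16.9 CPM (1.94), with 130 of 287 YAPKO UMIs in 1 cell, and the ratio without top cells was 1.12. Ifit3, its partner, rose from 1.79 to 7.44 CPM (2.06; 1.68 without top cells) and Rsad2, an antiviral enzyme, from 2.63 to 15.6 (2.57; 1.06 without the cell that held 178 of 265 UMIs). Rsad2 turned to -0.31 with the gene limits read as UMIs. All 3 were more abundant in the other kept cells of both libraries, with Rsad2 at 117 and 107 CPM and Ifit3 at 105 and 147. Ifi44 (3.26 and 7.5 CPM, log2 1.20), Usp18, which removes ISG15 from proteins (7.41 and 15.8, log2 1.09), and the chemokine genes Cxcl9 (3.0 and 17.9, log2 2.58, and 0.71 in deep HCs) and Cxcl10 (3.63 and 15.1, log2 2.06, and 3.41 without top cells, since 1 WT cell held 48 of 69 UMIs) rose too. B2m, the light chain of MHC class I, was the most abundant at 2782 and 3031 CPM. The interferon response core, GAAA followed after any 2 bases by GAAA, on either strand, was in 12 of 22 promoters of the list and in 3.44% of all 32851, and at least 2 matches were in 0.225%. Stretches with 2 matches each, in capitals, are shown for Ifit1 (chr19:34640719-34640838) and Ifit3 (chr19:34583359-34583478), both on the plus strand (RefSeq, GRCm38.p6), since the genes are neighbours that moved together.
Ifit1: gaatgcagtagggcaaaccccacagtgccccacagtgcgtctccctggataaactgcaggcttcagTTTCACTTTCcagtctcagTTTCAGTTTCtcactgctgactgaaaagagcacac
Ifit3: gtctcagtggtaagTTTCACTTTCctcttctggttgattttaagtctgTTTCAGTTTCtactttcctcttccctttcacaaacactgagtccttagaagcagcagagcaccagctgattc

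Several chemokine genes rose. Of 14 of 20 measured, 5 rose and 1 fell (4 and 1 relative to the median), with a relative median of 0.41 (0.79 in deep and 0.01 in shallow HCs, and -0.32 with the gene limits read as UMIs), and Cxcl9 and Cxcl10 are among those that rose. Cxcl1, a neutrophil attractant that HCs make, rose from 64.0 to 187 CPM (1.55, 1.45 to 1.65), a level above that of the other kept cells (3.48 and 9.24 CPM); TAZKO and DKO HCs held 32.4 and 35.1 CPM. Cxcl2, its relative, rose from 0.788 to 15.4 CPM (4.28), but 10 cells held 91.2% of the YAPKO UMIs and the other kept cells were higher too (19.7 and 84.6 CPM). Vcam1, an adhesion molecule, rose (1.68 and 4.19 CPM, log2 1.32), but was at -0.47 with the gene limits read as UMIs. Ccl5, a chemokine of T and NK cells, fell (19.6 and 7.97 CPM, log2 -1.29), a direction that turned in deep HCs (1.76); it was at 429 and 487 CPM in the other kept cells.

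A few heat shock genes fell. Of 10 of 10 measured, 0 rose and 3 fell, Hspa1a (16.3 and 0.709 CPM, log2 -4.52), Hspa1b (83.6 and 10.8, log2 -2.95) and the co-chaperone gene Dnajb1 (60.6 and 16.9, log2 -1.84), while Hspe1, the mitochondrial chaperonin and the most abundant, was at 841 and 905 CPM. The relative median was -0.26. Hspa1a was also lower in the other kept cells (242 and 9.36 CPM) and in B cells (235 and 3.44), as was Hspa1b (388 and 17.8 in the other kept cells), so for this pair the difference was not limited to HCs. Dnajb1 was at 53.1 and 28.6 CPM in the other kept cells, less than 2-fold apart. Immediate early genes (15 of 18, relative median 0.21, or -0.39 in cells of middle depth) had 4 that rose (2 relative to the median): Myc (2.10 and 11.1 CPM, log2 2.40), the transcription factor gene Klf6 (6.46 and 16.4, log2 1.34, but -0.24 in thinned cells), the anti-proliferative gene Btg2 (57.0 and 129, log2 1.18) and Ier3 (1.37 and 4.66, log2 1.77, with 31.8 and 67.4 in the other kept cells). Egr1, the most abundant in WT, was level at 152 and 150.2 CPM, and Fos (63.2 and 41.0) and Jun (111 and 72.7) were lower relative to the median. In the unfolded protein response (16 of 17, relative median -0.17) Trib3, a pseudokinase of the ATF4 branch (1.73 and 5.55 CPM, log2 1.68), and Sesn2, a stress-induced inhibitor of mTORC1 (1.84 and 5.55, log2 1.59), rose, and the chaperone gene Hsp90b1 was at 1099 and 1250.0 CPM. Of 8 of 12 p53 target genes measured, 4 rose and 0 fell (1 and 0 relative to the median), with a relative median of 0.50, and Btg2 is also one of them. Cdkn1a, the cell cycle inhibitor p21, went from 26.4 to 80.1 CPM (1.60, 1.45 to 1.75; DKO 10.0 CPM), Trp53inp1, a stress-induced p53 cofactor, from 37.2 to 87.5 (1.23), and Mdm2, which degrades p53, from 12.5 to 26.0 (1.06).

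Some biliary and progenitor genes rose, without the BEC keratins. Of 11 of 22 measured, 6 rose and 1 fell (3 and 1 relative to the median), with a relative median of 0.72 (0.50 in deep, 0.69 in shallow HCs). Spp1, the secreted phosphoprotein osteopontin, rose from 39.0 to 223 CPM (2.52, 2.40 to 2.63, and 2.13 in deep HCs) while the other kept cells stayed at 259 and 255 CPM; it was found in 3.19% and 12.1% of thinned HCs against 0.247% and 0% of thinned B cells. Only 18.3 CPM lay in the 112 pericentral-rich YAPKO HCs, against 237 in the rest, so Spp1 and the pericentral genes were high in different cells. Anxa5, a phospholipid binder, rose from 52.0 to 159.9 CPM (1.62), the keratin genes Krt8 (122 and 268 CPM, log2 1.13, and 0.62 in deep HCs) and Krt23 (0.999 and 7.5, log2 2.91) rose, and Krt18, the partner of Krt8, had a ratio of 0.92. Sox9, a biliary transcription factor, was level (11.6 and 13.2 CPM). Onecut1, which encodes HNF6, a factor of HC and BEC development, fell from 25.8 to 8.38 CPM (-1.62). Of 10 fetal liver genes 2 passed the minimum and both rose (1 relative to the median), Tff3, a trefoil peptide (166 and 363 CPM, log2 1.13), and Cd63, a membrane protein of late endosomes (5.41 and 30.7, log2 2.50, with 58.5 and 119 in the other kept cells); 5 and 4 members were at 0. Among cell division genes (8 of 20, relative median 0.36) 3 rose: Ccnd1, the G1 cyclin (16.8 and 49.7 CPM, log2 1.57), the tubulin regulator Stmn1 (5.62 and 15.1, log2 1.42) and Ube2c, a mitotic ubiquitin enzyme (0.683 and 6.38, log2 3.22, or 2.56 without the cell that held 45 of 108 UMIs). Matrix and adhesion genes (21 of 24, relative median 0.01, from -0.33 to 0.39 over other settings) had 3 that rose (2 relative to the median), Tubb2a, a tubulin (57.6 and 179 CPM, log2 1.64), Cldn2, a pore-forming claudin (4.47 and 12.6, log2 1.5), and the junction scaffold Tjp1 (12.8 and 27.0, log2 1.07), with Actb the most abundant at 867 and 971 CPM.

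**Figure D4:**
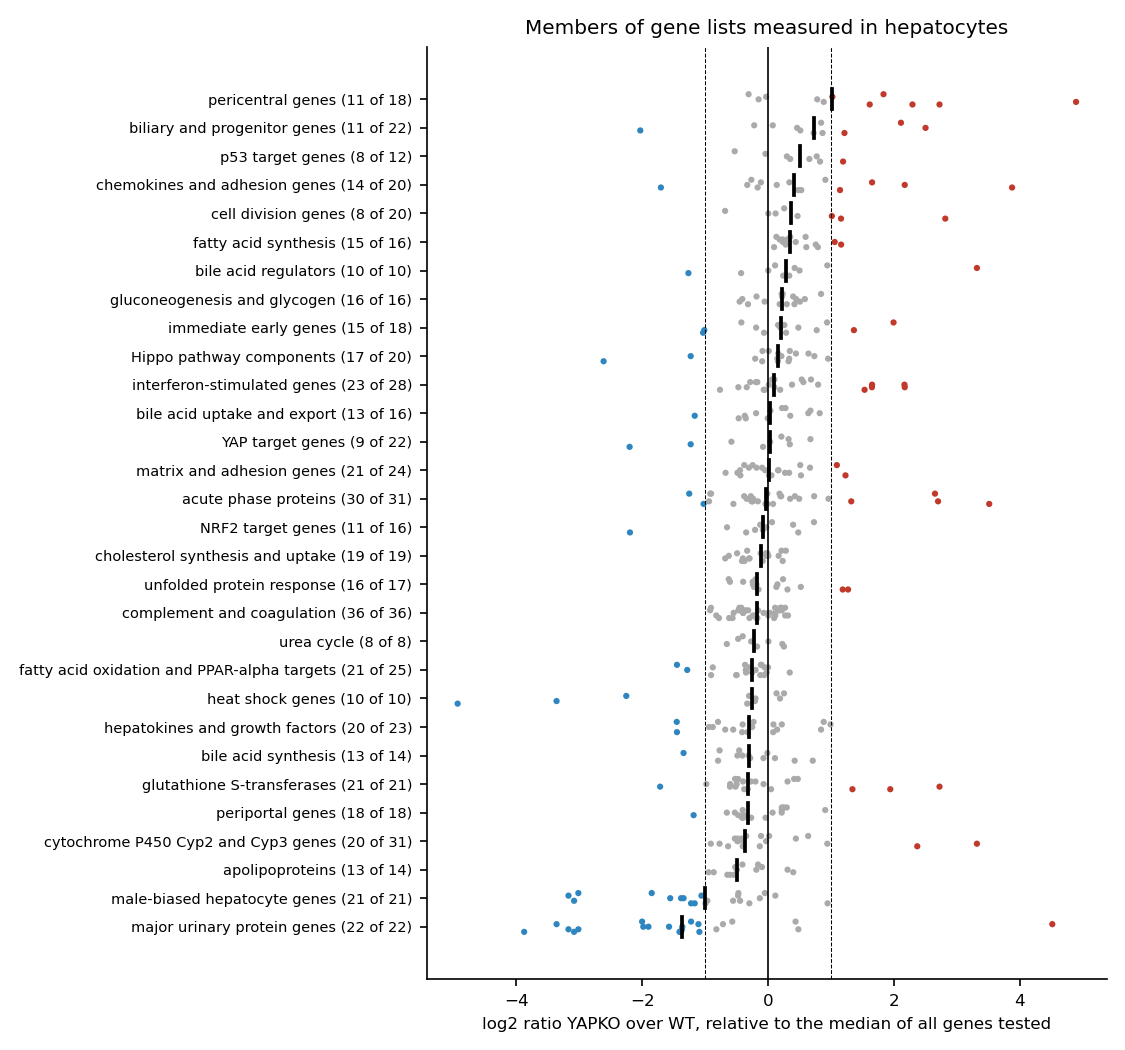
Log2 ratios of YAPKO over WT in HCs relative to the all-gene median (horizontal) for the measured members of gene lists with at least 3 measured (vertical; marker, rule, female-biased and sex chromosome lists left out), 1 point a gene, with a thick bar at each list median and dashed lines at 2-fold. The periportal, urea cycle, acute phase and apolipoprotein lists are drawn with their rule genes. Among the lists shown, pericentral genes have the highest median, and Mup and male-biased genes the lowest.

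Named genes were also compared by depth. Of 120 genes compared between deep and shallow HCs, 115 had relative ratios of the same sign in both and 5 of opposite sign. Nearly all were chosen by their ratio in all HCs, which pool both classes, so the shared sign follows in part from the choice. The same share over all genes was not counted. Mt1 (relative 2.64 in deep, 2.69 in shallow HCs) and Oat (4.62 and 4.92) changed alike in both classes. Others depended on depth: Mir6236 was at 4324 and 532 CPM in all HCs (-3.02) but at 148 and 87.0 in deep HCs (-0.77), and Lars2 at 423 and 143 (-1.56, and -0.13 in deep HCs), and in B cells Mir6236 was at 5620.2 and 2619.6 CPM and Lars2 at 501 and 387.

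**Figure D5:**
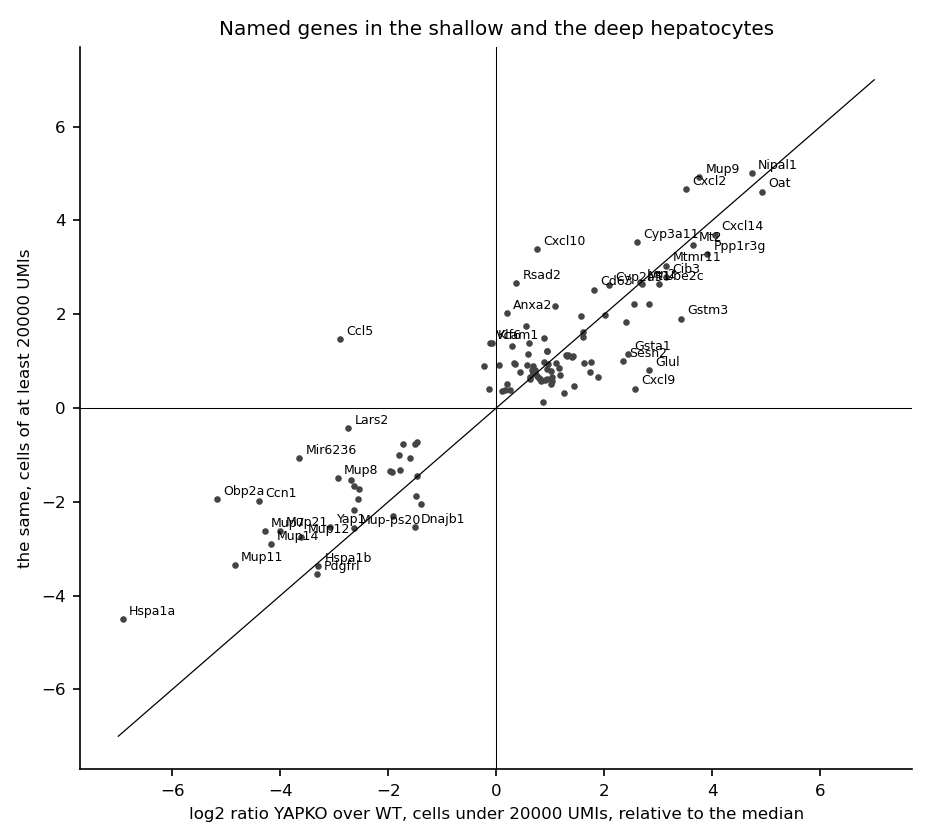
Relative log2 ratio of YAPKO over WT in HCs under 20000 UMIs (horizontal) and in HCs of at least 20000 UMIs (vertical), 1 point a gene, with the line of equal values. Most points lie near the line; Ccl5, Mir6236 and Lars2 lie far from it.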

How the data were processed

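Single cells of mouse liver were measured in 4 10x libraries (3' kit), 1 mouse each of WT, YAPKO, TAZKO and DKO. The authors aligned reads to mm10 and deposited UMI counts per gene and barcode, for 55488 genes, as filtered matrices; the processing notes give Cell Ranger 6.0.1 and the matrix headers 4.0.0. The deposited counts were used as they are.

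Barcodes with 500 to 6000 genes and at most 10% mitochondrial UMIs were kept. HCs were chosen by summed shares of 8 HC genes (at least 4%) and 6 endothelial genes (under 0.2%); B cells, used to gauge HC RNA outside HCs, held at least 0.5% B cell marker UMIs. HC UMIs numbered 19028175 in WT and 16936489 in YAPKO, so that 100 UMIs correspond to about 5 to 6 CPM. UMIs were summed per gene over HCs and scaled to CPM with exact Poisson intervals; log2 ratios have exact conditional binomial intervals and shares Clopper-Pearson intervals, all at 95%. Genes with at least 100 UMIs over both libraries were compared, and past the fold means 2-fold. Cells were thinned to 1000 UMIs (seed 1; 3 YAPKO HCs were too shallow). No test across genotypes was possible with 1 library each. Named genes were Yap1 and Wwtr1; the 15 with the highest lower bound and the 15 with the lowest upper bound of the interval, leaving out rule genes, marker genes, mitochondrial genes, gene models, and genes higher in other kept cells than in HCs (compared in YAPKO for rises and in WT for falls); 10 each way among genes of at least 1000 CPM; and in each list the members past 2-fold and the most abundant. Other list members and CT010467.1 were named after their values were seen. The members and lists were chosen with earlier results of these data known. Alternatives changed the gene share limits, mitochondrial limit, depth, scaling, count minimum and fold. Gene coordinates are from GENCODE vM21 and promoters from RefSeq, GRCm38.p6; motifs were searched on both strands. Python 3.11.15, numpy 2.4.6, scipy 1.17.1, pandas 2.3.3 and matplotlib 3.10.9 were used, and the code was tested on simulated data.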

Additional observations from a re-analysis of the deposited data

How the results depend on the processing

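Of 111 named genes past 2-fold, 1832 ratios were computed under other settings, and 9 of them, in 6 genes, had the other sign. These genes were chosen for passing 2-fold in the same libraries, and many settings reuse most of the same cells. Few changes of sign therefore follow in part from the choice, and the rate over all genes was not counted. Intervals of list medians are taken over the member genes, not over counts, and are wide for short lists. For p53 target and urea cycle genes, 8 measured in each, they run from the lowest to the highest member. Pericentral, biliary, p53 target, periportal and urea cycle medians stayed within these intervals under all settings, which for such short lists shows little about their stability. Yap1 was lower in YAPKO under all settings. An endothelial limit of 0.1% and a mitochondrial limit of 20% changed no sign and gave an all-gene median of 0.40 each, against 0.41; of the log2 ratios, only Mup20 left its interval, at -0.81 with the latter. The cause of each move was not tested. Periportal, urea cycle, acute phase and apolipoprotein medians here include rule genes, unlike those of the report. With the 500 and 6000 limits read as UMIs, which keeps 7273 WT and 1193 YAPKO HCs, HCs made up 70.4 and 36.4% of kept cells, Yap1 was at -1.25, 857 genes were higher past the fold, 242 lower relative to the median, the all-gene median was 0.61, and Klf6 (-0.0047), Rsad2 (-0.31), Slco1a4 (-0.030) and Vcam1 (-0.47) changed sign; relative medians were -0.32 for acute phase proteins, -0.70 for apolipoproteins, -0.32 for chemokines and adhesion genes, -0.54 for complement and coagulation, -0.79 for Cyp2 and Cyp3 genes, -0.10 for fatty acid oxidation, -0.31 for immediate early genes, -0.30 for interferon-stimulated genes, -2.06 for Mup genes, -0.33 for matrix and adhesion genes and -0.45 for the unfolded protein response. In cells thinned to 1000 UMIs, Yap1 was at -1.07, 71 genes were higher relative to the median, the all-gene median was 0.49, Klf6 was at -0.24, and relative medians were -0.53 for Cyp2 and Cyp3 genes, 0.82 for fatty acid synthesis and -0.33 for interferon-stimulated genes. Centred on the median, Yap1 was at -2.61, with 157 genes higher and 126 lower. With the mean over cells of each gene's share, Yap1 was at -1.63, 1942 genes were higher and 89 lower (328 and 345 relative to the median), the all-gene median was 0.62, and relative medians were -0.68 for apolipoproteins, -0.55 for Cyp2 and Cyp3 genes and -0.26 for the unfolded protein response.

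Without the 8% of HCs with the most UMIs, 1260 genes were higher past the fold, 249 lower relative to the median, the all-gene median was 0.58 and that of apolipoproteins -0.65. In cells of 2000 to 10000 UMIs, 192 genes were lower relative to the median, the all-gene median was 0.57, and relative medians were -0.59 for acute phase proteins, -0.72 for apolipoproteins, -0.64 for complement and coagulation, -0.91 for Cyp2 and Cyp3 genes, -0.39 for immediate early genes, -0.15 for interferon-stimulated genes, -2.17 for Mup genes, -1.40 for male-biased genes and -0.44 for the unfolded protein response. Taking the 50 most abundant genes out of the total gave 257 genes higher, 84 lower and a median of 0.17, and taking out the 8 rule genes a median of 0.39. A minimum of 20 UMIs gave 1087 genes higher and 180 lower (446 and 400 relative to the median) and 1.15 for female-biased genes, and one of 500 UMIs gave 175 and 29 (57 and 62) and a median of 0.37. At 1.5-fold, 2589 genes were higher and 128 lower (535 and 549 relative), and at 3-fold 112 and 25 (57 and 41). HC genes at 2% or more of UMIs gave a WT share of 32.3% and a median of 0.39; at 10% or more, shares were 12.3 and 4.59%, Ccl5 was at 1.65, Cyp2c54 at -0.86, the all-gene median at 0.36, the median of cholesterol synthesis and uptake relative to all genes at 0.0066, and relative medians were -1.41 for male-biased and 0.10 for sex chromosome genes. With at most 5% mitochondrial UMIs the YAPKO share was 15.7% and the median 0.38, and with markers of other cell types under 0.2% Ccl5 was at 0.71.

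The remaining alternatives were chosen after seeing the data; they test genes with at least 100 UMIs in the cells they keep (8605 genes in deep and 5700 in shallow HCs), so their medians differ from those given for deep and shallow HCs in the report, which keep the genes tested in all HCs (for Hippo components in shallow HCs, 0.61 here and 0.19 there). Deep HCs alone had 333 genes higher past the fold, a median of 0.29 and Ccl5 at 1.76. Shallow HCs alone had 1315 genes higher, 224 lower relative to the median and an all-gene median of 0.65, with relative medians of 0.61 for Hippo components, -0.80 for apolipoproteins, -0.57 for Cyp2 and Cyp3 genes, -2.18 for Mup genes and -0.29 for the unfolded protein response. With no upper limit on detected genes, 279 genes were higher relative to the median, the all-gene median was 0.36 and that of matrix and adhesion genes 0.39. No paired analysis was possible because each genotype is 1 library and the labels pair no mice. Depth limits all of this: shallow HCs are 87.4 and 71.4% of HCs and hold 32.1 and 27.6% of UMIs, and genes of few CPM rest on few UMIs.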

Other observations

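Within the YAPKO HCs, marker levels differed by depth. Glul was at 805 CPM in the 221 cells of 1000 to 2500 UMIs and at 427 CPM in those of 2500 to 5000, and at 70.6 and 29.8 CPM in those of 20000 to 50000 and of at least 50000. Oat went from 1252 and 626 CPM to 38.0 and 7.10 over the same classes. Spp1 was highest in between, at 603 CPM in cells of 5000 to 10000 UMIs. In WT HCs Oat was at most 7.47 CPM in any class.

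Il4, a cytokine gene that HCs are not known to express, had 2 UMIs in WT HCs and 241 in YAPKO HCs, of which 239 were in 1 cell. Mir6236 was at 31351 and 24567 CPM in all barcodes under 500 genes, taken without regard to the HC gene shares, far above its level in kept HCs. In the TAZKO library Mir6236 was at 11736 CPM in HCs and in the DKO library at 448. No cause of these values was tested.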
